A study of Bubalus bubalis with 12 samples.

Results

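Cell cycle and proliferation genes were examined in the ruminal wall of Italian Mediterranean dairy buffaloes as a set of 45 genes, chosen by symbol for their known roles in DNA replication and mitosis. All 45 symbols were found among the 34037 genes of the deposited table. The samples were 12 ruminal wall biopsies, 1 library of total RNA per animal. The control group (n = 6) received a total mixed ration (TMR) and the treated group (n = 6) a TMR with green ryegrass at about 30% of the diet. All animals were adult, multiparous cows in milk from 1 commercial farm and were slaughtered together. Both rations were balanced for nitrogen and energy, and the one with ryegrass also held less corn silage and alfalfa hay and no soybean meal. RNA was extracted from whole tissue, without separation of cell types, and how deep the biopsies reached is not given in the sources used here.

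The rumen is lined by a stratified squamous epithelium whose basal cells divide and whose daughter cells differentiate as they move towards the lumen. A dividing cell first loads the MCM helicase onto DNA with the help of CDC6, then replicates its DNA in S phase, with nucleotides supplied by RRM2 and TYMS. In G2 and mitosis, CDK1 with cyclins A and B, the Aurora and Polo kinases, and kinesins build the spindle and separate the chromosomes. Transcripts of these genes are produced mainly in dividing cells, so they are widely used as markers of proliferation.

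Between 10531245 and 12947982 reads per animal lay on genes, and 12619 genes with at least 42 reads in at least 1 animal, after scaling by trimmed mean of M values (TMM), were tested. All 45 cell cycle genes passed this filter, with between 4 reads (FOXM1 in treated animal 6) and 3110 reads per gene and animal. Values are FPKM, fragments scaled by gene length and by the fragments counted in that animal. Treated animal 6 and control animal 6 stood apart from the rest, since their log2 FPKM differed from the mean of the other animals with an SD over genes of 0.793 and 0.732, against 0.455 to 0.662 for the remaining animals. Results are therefore also given without them. The tissue label was checked with marker genes. The basal keratins KRT5 and KRT15 ranged from 451 to 2372 FPKM and from 603 to 1211 FPKM, and KRT14 was not in the table. The smooth muscle myosin MYH11 ranged from 0.712 to 4.495 FPKM. Of the same list, TAGLN reached 14.8 and SMTN 18.8 FPKM, the highest values, and ACTG2, CNN1 and LMOD1 did not pass the filter. Of 10 B cell and germinal centre genes, 5 had 3 reads or fewer in every animal, and CD79B was listed at 0 in all of them. Only BCL6 of these genes passed the filter, at 3.16 to 6.47 FPKM.

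The cell cycle genes were of moderate level. Their mean over the 12 animals ranged from 0.745 FPKM for FOXM1, a transcription factor of G2 genes, to 31.5 FPKM for TYMS, thymidylate synthase. The median of the 45 means was 8.42 FPKM, which stood at the 51.7th percentile of the genes tested by mean level. Besides TYMS, the genes above 20 FPKM were ANLN (29.1 FPKM), which scaffolds the cleavage furrow, MCM7 (28.8 FPKM), TOP2A (28.4 FPKM), which untangles DNA, and PCNA (20.4 FPKM), the sliding clamp of DNA polymerases. Neighbours in this order lay within the spread between animals. For example, the SD between animals of the control group was 4.51 FPKM for ANLN and 5.78 FPKM for MCM7.

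The diets were compared to ask whether green feed was associated with a different turnover of the ruminal epithelium. None of the 45 genes passed the threshold of 0.05 in limma, either by nominal or by adjusted p-value. Over all 12619 genes, limma on FPKM called 157 (1.24%) at the nominal threshold and 0 after adjustment. With voom on the reads, 144 genes were called at the nominal threshold and 0 after adjustment. The mean log2 level was higher in the treated group for 25 cell cycle genes and lower for 20, and their median log2 fold change (treated minus control) was 0.032 beside 0.0053 for all genes tested. FPKM of the diets overlapped for each of the 45 genes, as for nearly all genes tested, of which 0.0555% had groups that did not overlap. The smallest exact permutation p-value among the 45 genes was 0.273, where 6 animals against 6 could reach 0.00216. The adjusted limma p-value was 0.9997 for each. In such bulk samples, fewer dividing cells and less of each transcript per dividing cell cannot be told apart.

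**Figure D1:**
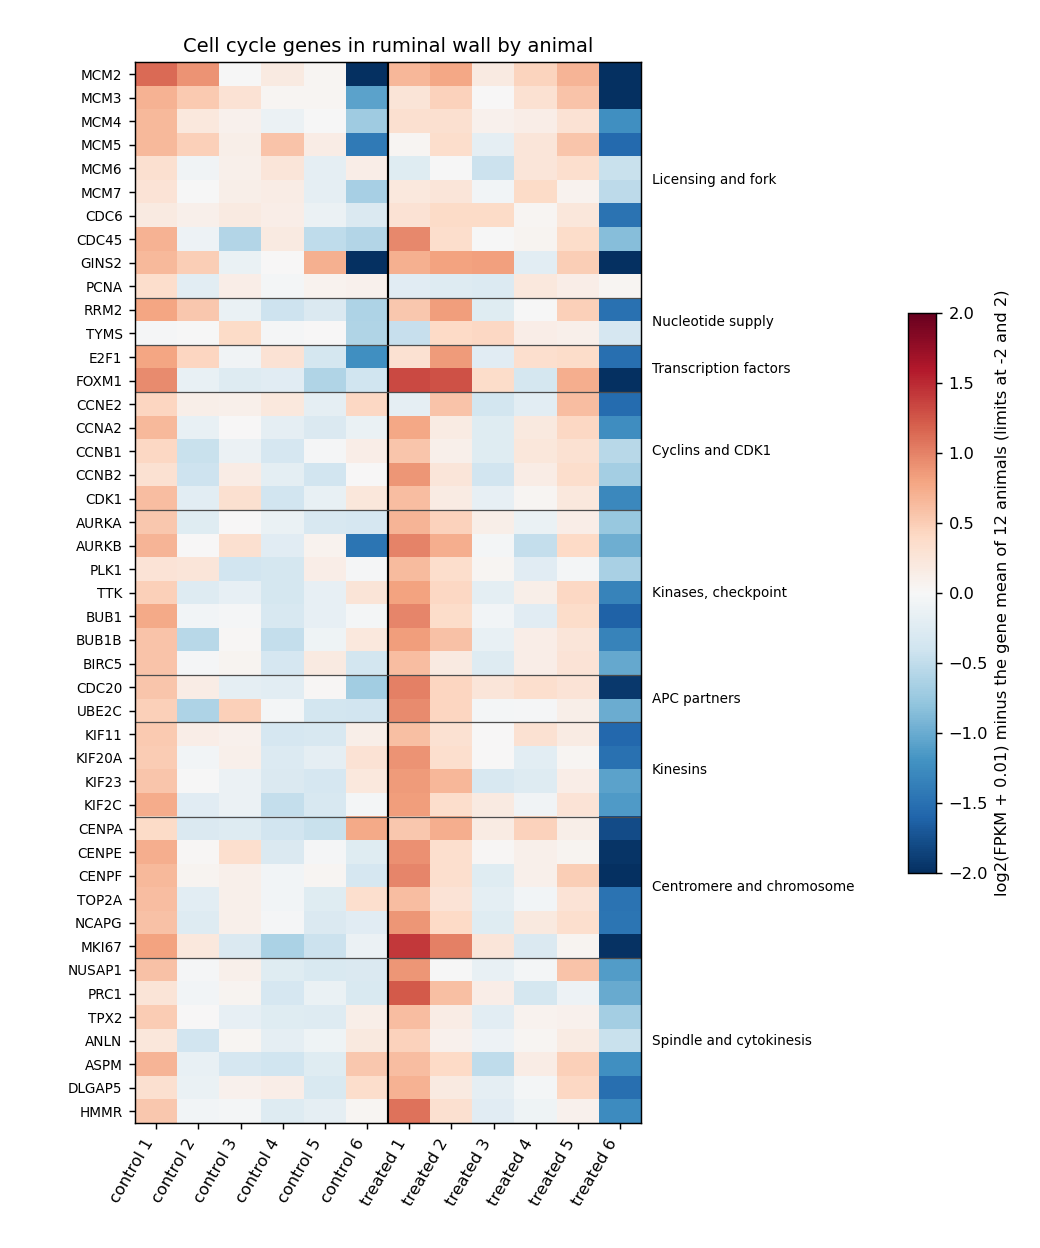
Level of each of the 45 cell cycle genes (rows, grouped by role) in each of the 12 animals (columns), as log2(FPKM + 0.01) minus the mean of the gene, with colours cut at -2 and 2. Treated animal 6 is the lowest animal for 41 genes and treated animal 1 the highest for 28, and control animal 6 is below each of the 10 animals not numbered 6 for 10 of 14 S phase genes, MCM6 and PCNA not among them, and for 5 of 29 mitosis genes.

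The 95% intervals were wide. Their half-width was 0.27 on the log2 scale for PCNA, 1.38 for MCM2 and 0.64 at the median of the 45 genes. The sign of the median rested on single animals. It was 0.26 without treated animal 6, with 42 genes higher in the treated group, beside a median of 0.037 for all genes tested. Without treated animal 1 it was -0.11, with 7 genes higher, beside -0.0067 for all genes tested. Without control animal 1 it was 0.12 beside 0.023. Without both animals numbered 6 it was 0.20 beside 0.0225, with 41 genes higher. The 45 genes varied together across animals, so these counts of genes are not independent observations. Without treated animal 6, CDC20 was the 1 cell cycle gene with a nominal limma p-value below 0.05 (log2 fold change 0.52 ± 0.21, SE), where 2.57% of the genes tested had one. Without both animals numbered 6 it was CENPA (0.60 ± 0.17), against 2.49% of the genes tested. Neither gene passed after adjustment. With all 12 animals the log2 fold change of CENPA was 0.073 ± 0.37 (SE), with control animal 6 the highest and treated animal 6 the lowest animal. The animals left out were thus those farthest against the direction called for CENPA. For CDC20, the animal left out was likewise the lowest of the 12. CDC20 and CENPA are named since they were the ones called, after their values were seen.

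**Figure D2:**
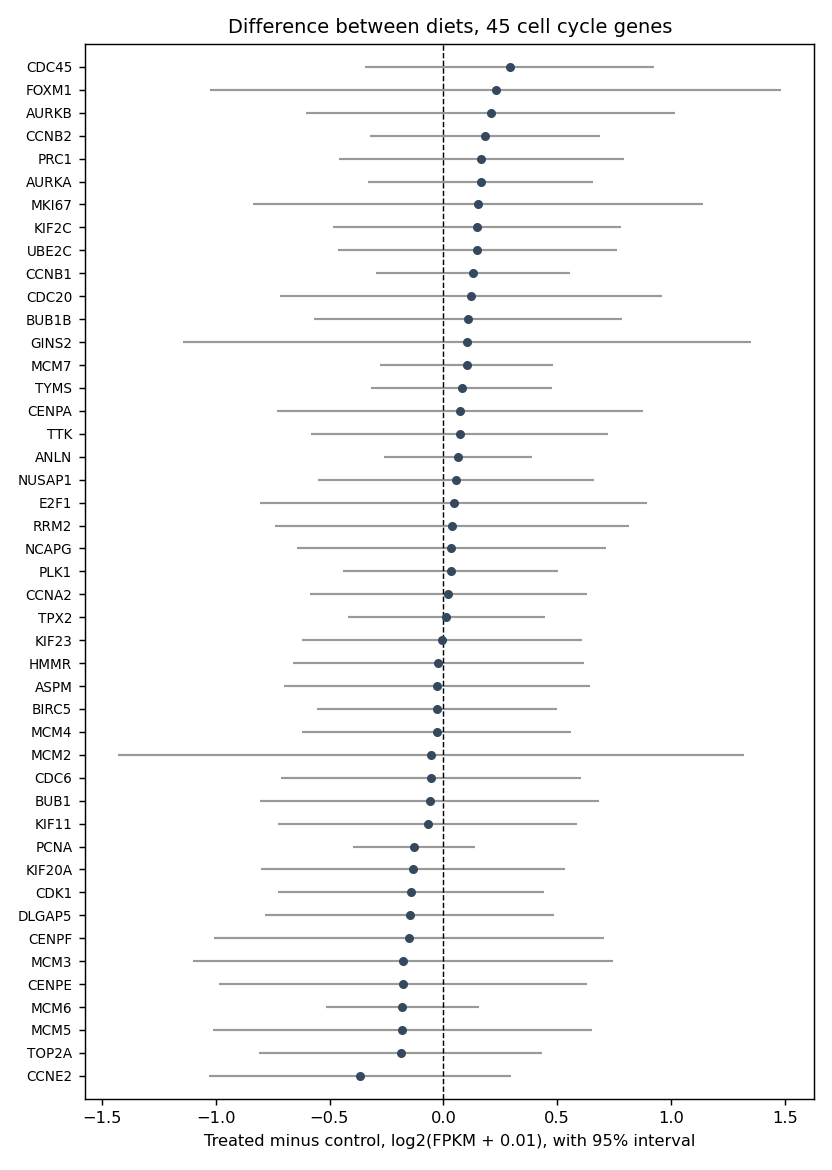
Difference of the treated minus the control group for each cell cycle gene in log2(FPKM + 0.01), with points for the estimate and bars for the 95% interval from limma (6 animals per group), ordered by the estimate. Every interval includes 0, and the widest are those of MCM2, GINS2 and FOXM1.

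The 6 subunits of the MCM helicase, MCM2 to MCM7, form a ring of 1 copy each that unwinds DNA at the fork. MCM6 (gene identifier 102393446) was at 10.1, 12.3 and 14.3 FPKM (lowest, median and highest) in control animals and at 8.37, 10.5 and 14.4 FPKM in treated animals. For MCM7 (102410141) these were 17.8, 29.4 and 34.1 in the control and 19.7, 31.1 and 36.7 in the treated group. The groups overlapped for both subunits, and treated animal 6 was the lowest of its group for both. Means were 12.2 ± 1.55 FPKM in control against 10.9 ± 2.55 FPKM in treated animals (SD, n = 6 each) for MCM6, with a log2 fold change of -0.18 ± 0.16 (SE, 95% interval -0.52 to 0.16, exact permutation p = 0.273). For MCM7 the means were 27.8 ± 5.78 FPKM in control against 29.8 ± 5.96 FPKM in treated animals (SD, n = 6 each), and the log2 fold change was 0.10 ± 0.18 (SE, 95% interval -0.28 to 0.48, exact permutation p = 0.580). The estimate for MCM7 turned to -0.019 without control animal 6.

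MCM2, MCM3, MCM4 and MCM5 differed more between animals than MCM6 and MCM7 did, with within-group SDs on the log2 scale of 1.29, 0.852, 0.532 and 0.766 against 0.2697 and 0.327. MCM2 was at 13.6, 11.6, 6.17, 7.03, 6.36 and 1.45 FPKM in control animals 1 to 6 and at 9.86, 10.6, 6.98, 8.398, 9.91 and 0.824 FPKM in treated animals 1 to 6. The animals numbered 6 were the lowest of their groups, while the remaining animals of both diets lay in the same range. MCM5 was at 2.94 FPKM in control animal 6 and 2.68 FPKM in treated animal 6, against a mean of 9.84 FPKM in the other 10 animals. MCM3 was at 3.01 and 1.41 FPKM against 7.99 FPKM, and MCM4 at 6.45 and 4.51 FPKM against 12.3 FPKM. The proportions of the ring's transcripts thus differed in these animals. The ratio of MCM2 to MCM6 FPKM was 0.117 in control animal 6 and 0.0984 in treated animal 6, where the other 10 animals ranged from 0.506 to 1.06. For MCM5 to MCM6 it was 0.236 and 0.32 against 0.696 to 1.0, and for MCM3 to MCM6 0.242 and 0.168 against 0.485 to 0.838. In treated animal 6 the ratio of MCM7 to MCM6, 2.35, lay within the range of the other 10 animals, from 2.06 to 3.37, and in control animal 6 it was lower, at 1.43.

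**Figure D3:**
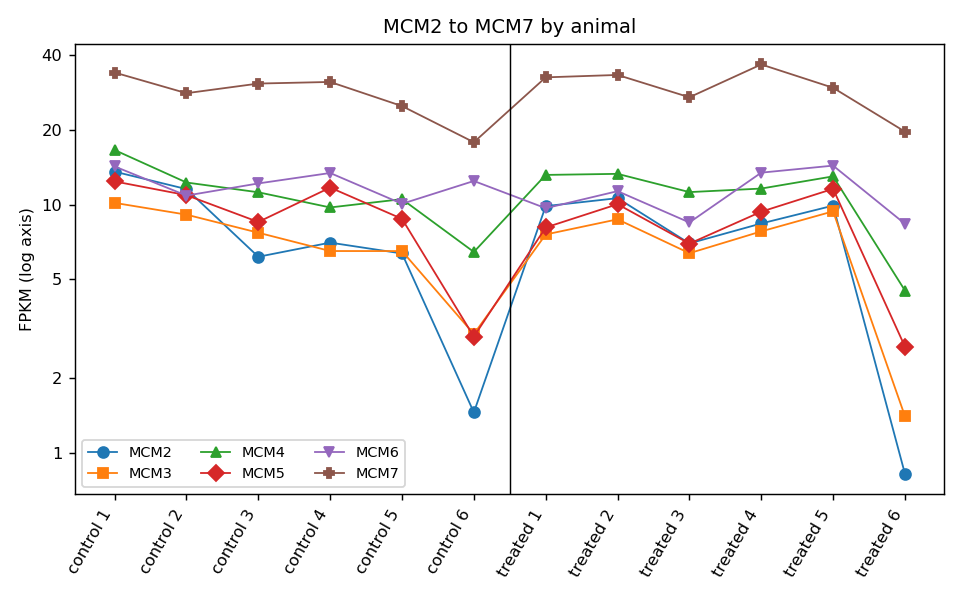
FPKM of the 6 MCM helicase subunits in each animal on a log axis, with 1 line per subunit and a vertical line between the diets. MCM2, MCM3 and MCM5 are lowest in control animal 6 and treated animal 6, and MCM6 in control animal 6 (12.5 FPKM) lies in the middle of its group.

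Further genes of licensing and the fork were low in the same animals to differing degrees. GINS2, a subunit of the GINS complex that activates the helicase, was at 0.238 FPKM in control animal 6 and 0.197 FPKM in treated animal 6, against a mean of 1.42 FPKM in the other 10 animals. CDC6, which loads the MCM ring, was at 0.368 FPKM in treated animal 6 against 1.18 FPKM. CDC45 (102405775), which joins MCM and GINS in the active helicase, was at 2.38, 2.92 and 5.78 FPKM (lowest, median and highest) in control animals and at 1.97, 4.12 and 6.92 FPKM in treated animals. Treated animal 1 was highest and treated animal 6 lowest, so the treated group spanned the control group. Means of CDC45 were 3.403 ± 1.34 FPKM in control against 4.21 ± 1.64 FPKM in treated animals (SD, n = 6 each), and its log2 fold change, the highest of the 45 genes, was 0.29 ± 0.30 (SE, 95% interval -0.34 to 0.93, exact permutation p = 0.379). PCNA (102410223) stood apart from the other fork genes. Its FPKM were 25.8, 17.5, 22.1, 19.6, 21.3 and 21.5 in control animals 1 to 6 and 17.2, 16.9, 16.7, 23.3, 22.2 and 20.7 in treated animals 1 to 6. Neither animal numbered 6 was low, and treated animals 1 to 3 were the lowest of their group. Means of PCNA were 21.3 ± 2.77 FPKM in control against 19.5 ± 2.94 FPKM in treated animals (SD, n = 6 each), with a log2 fold change of -0.13 ± 0.13 (SE, 95% interval -0.40 to 0.14, exact permutation p = 0.288).

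Of the pair that supplies nucleotides, RRM2, a subunit of ribonucleotide reductase, was at 5.02, 6.66 and 13.3 FPKM (lowest, median and highest) in the control and 2.72, 9.18 and 13.7 FPKM in the treated group. TYMS was at 20.4, 30.6 and 40.3 FPKM in the former group and 22.4, 33.2 and 41.1 FPKM in the latter. RRM2 was lowest in the animals numbered 6 of both groups, and TYMS was lowest in control animal 6 (20.4 FPKM) and treated animal 1 (22.4 FPKM). E2F1, which drives the transcription of S phase genes, was at 1.23, 3.15 and 5.01 FPKM in control animals and 1.01, 3.62 and 5.26 FPKM in treated animals. FOXM1 was at 0.393, 0.509 and 1.17 FPKM and 0.0892, 0.893 and 1.52 FPKM, and its highest value was 17.0 times its lowest, the widest range of the 45 genes, at only 4 reads in treated animal 6.

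Cyclins set the timing of CDK activity. CCNE2 (102390852), cyclin E2 of the entry into S phase, was the cell cycle gene with the smallest limma p-value. It was at 3.47, 2.77, 2.76, 2.98, 2.26 and 3.44 FPKM in control animals 1 to 6 and at 2.27, 3.801, 1.99, 2.21, 3.95 and 0.878 FPKM in treated animals 1 to 6. Treated animal 6 was lowest and treated animals 2 and 5 were highest of all 12, so the control values lay inside the treated range. Means of CCNE2 were 2.95 ± 0.461 FPKM in control against 2.52 ± 1.17 FPKM in treated animals (SD, n = 6 each), with a log2 fold change of -0.37 ± 0.31 (SE, 95% interval -1.03 to 0.30, exact permutation p = 0.338). CCNB1 (102413044) and CCNB2 (102398229) are the B cyclins that activate CDK1 at the entry into mitosis. CCNB1 was at 6.31, 8.19 and 11.5 FPKM (lowest, median and highest) in the control and 5.85, 9.68 and 12.6 FPKM in the treated group, and CCNB2 at 6.38, 7.99 and 10.5 and 5.296, 9.76 and 15.7 FPKM. Both were highest in treated animal 1 and lowest in treated animal 6. The log2 fold change of CCNB1 was 0.13 ± 0.20 (SE, 95% interval -0.30 to 0.56, exact permutation p = 0.537), from means of 8.402 ± 1.88 FPKM in control against 9.302 ± 2.44 FPKM in treated animals (SD, n = 6 each). For CCNB2 it was 0.18 ± 0.24 (SE, 95% interval -0.32 to 0.69, exact permutation p = 0.494), from means of 8.14 ± 1.66 FPKM in control against 9.65 ± 3.65 FPKM in treated animals (SD, n = 6 each). CCNA2, cyclin A2 of S phase and G2, ranged over the 12 animals from 3.67 to 14.9 FPKM and CDK1 from 6.14 to 22.9 FPKM.

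Among the mitotic kinases and checkpoint genes, AURKA (102396023), which matures the spindle poles, was at 4.598, 5.08 and 8.46 FPKM (lowest, median and highest) in control animals and 3.43, 6.33 and 9.28 FPKM in treated animals. Treated animal 1 was highest and treated animal 6 lowest. Its means were 5.61 ± 1.47 FPKM in control against 6.43 ± 2.04 FPKM in treated animals (SD, n = 6 each), and the log2 fold change was 0.16 ± 0.23 (SE, 95% interval -0.33 to 0.66, exact permutation p = 0.515). AURKB, the kinase of the chromosomal passenger complex, was the lowest in control animal 6 (1.85 FPKM) rather than in treated animal 6 (2.59 FPKM). BIRC5, survivin, of the same complex was at 8.097 and 5.12 FPKM in these animals, against a mean of 11.7 FPKM in the other 10. PLK1 varied least of these genes, from 1.73 to 4.21 FPKM. The checkpoint kinases TTK, BUB1 and BUB1B were each lowest in treated animal 6, at 1.603, 1.999 and 2.904 FPKM, and highest in treated animal 1, at 7.11, 12.1 and 13.03 FPKM. In control animal 6 they were near the middle, at 4.84, 5.99 and 8.47 FPKM.

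CDC20 and UBE2C act with the anaphase-promoting complex, which ends mitosis by marking cyclin B for destruction. CDC20 was at 13.5, 10.2, 8.07, 7.91, 9.32 and 5.68 FPKM in control animals 1 to 6 and at 18.5, 12.3, 10.8, 11.6, 11.1 and 2.42 FPKM in treated animals 1 to 6. Treated animals 1 to 5 lay above 5 of the 6 control animals, and treated animal 6 lay below all of them. UBE2C was at 9.56, 12.8 and 20.3 FPKM (lowest, median and highest) in the control and 7.36, 15.1 and 28.2 FPKM in the treated group. The 4 kinesins, motors of the spindle and of cytokinesis, were also highest in treated animal 1 and lowest in treated animal 6. KIF11 ranged from 3.21 to 14.4 FPKM, KIF20A from 2.03 to 10.7, KIF23 from 3.75 to 14.2 and KIF2C from 1.63 to 6.401 FPKM.

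**Figure D4:**
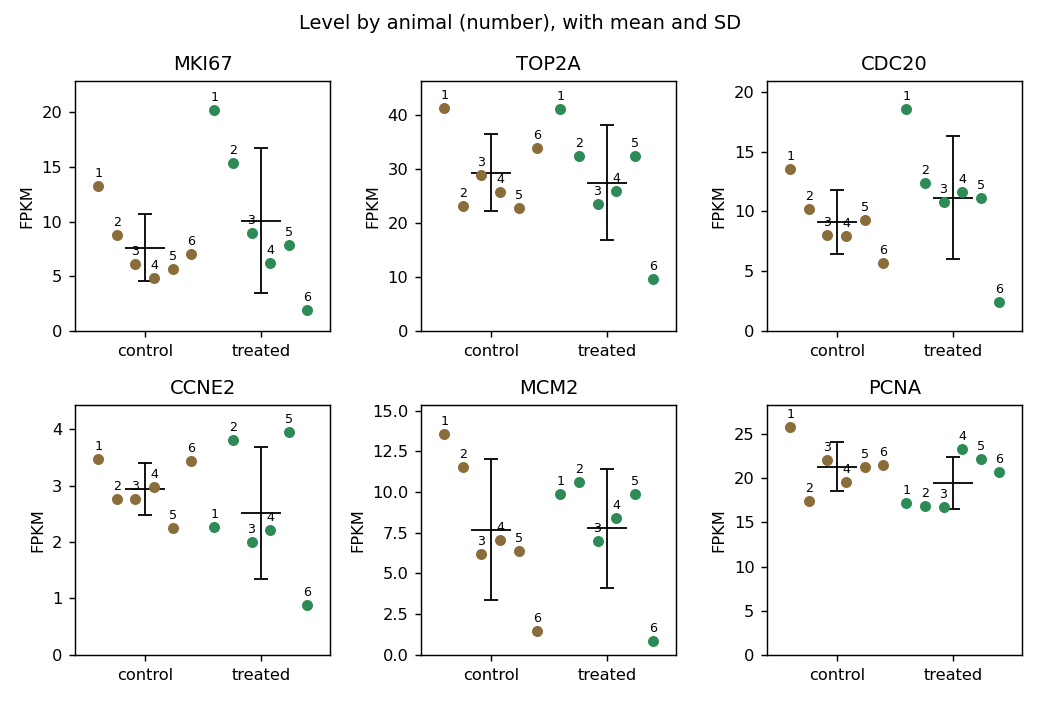
FPKM of 6 cell cycle genes in each animal (points, numbered by animal) of the control and treated groups, with the group mean and SD as a line and bars and axes that start at 0. Treated animal 6 is the lowest point for MKI67, TOP2A, CDC20, CCNE2 and MCM2 but lies among the others for PCNA, and control animal 6 is low for MCM2 and CDC20.

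MKI67 (102396197) encodes Ki-67, the protein most used to stain cycling cells. It was at 13.2, 8.76, 6.18, 4.86, 5.64 and 7.01 FPKM in control animals 1 to 6 and at 20.2, 15.3, 8.95, 6.19, 7.84 and 1.91 FPKM in treated animals 1 to 6. Treated animals 1 and 2 lay above every control animal and treated animal 6 below every one, so the treated group covered the whole control range. Means were 7.61 ± 3.05 FPKM in control against 10.1 ± 6.61 FPKM in treated animals (SD, n = 6 each), and the log2 fold change was 0.15 ± 0.46 (SE, 95% interval -0.84 to 1.14, exact permutation p = 0.784). The estimate was -0.12 without treated animal 1 and -0.037 without treated animal 2. TOP2A (102414732) was at 22.8, 27.4 and 41.3 FPKM (lowest, median and highest) in the control and 9.67, 29.2 and 41.1 FPKM in the treated group, with overlap of the groups. Its means were 29.4 ± 7.17 FPKM in control against 27.5 ± 10.7 FPKM in treated animals (SD, n = 6 each), and its log2 fold change of -0.19 ± 0.29 (SE, 95% interval -0.81 to 0.44, exact permutation p = 0.673) became 0.089 without treated animal 6. CENPA, the histone variant of centromeres, was at 11.5, 7.25, 7.41, 6.76, 6.48 and 14.9 FPKM in control animals 1 to 6 and at 12.8, 14.6, 9.85, 12.2, 9.53 and 2.55 FPKM in treated animals 1 to 6. It was the 1 cell cycle gene for which control animal 6 was the highest of all 12. CENPE and CENPF, which hold microtubules at the kinetochore, were at 1.55 and 3.02 FPKM in treated animal 6, against 7.25 and 15.96 FPKM for the mean of the 10 animals not numbered 6. NCAPG, a subunit of condensin, ranged from 4.77 to 24.2 FPKM.

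Of the genes of the spindle and cytokinesis, PRC1 (102389100), which bundles the microtubules of the midzone, was at 14.8, 12.01, 12.9, 9.85, 11.3 and 10.1 FPKM in control animals 1 to 6 and at 28.9, 18.9, 13.5, 9.73, 11.6 and 6.19 FPKM in treated animals 1 to 6. Treated animals 1 and 2 were above all control animals, and treated animals 4 and 6 were below all of them. Means of PRC1 were 11.8 ± 1.85 FPKM in control against 14.8 ± 8.09 FPKM in treated animals (SD, n = 6 each), with a log2 fold change of 0.17 ± 0.29 (SE, 95% interval -0.46 to 0.79, exact permutation p = 0.630), which was -0.060 without treated animal 1. NUSAP1, TPX2, DLGAP5 and HMMR, which stabilise spindle microtubules, and ASPM of the spindle poles were each lowest in treated animal 6. HMMR ranged from 3.23 to 16.5 FPKM and TPX2 from 4.62 to 11.3 FPKM. ANLN had the narrowest range of this group, from 21.1 to 39.5 FPKM.

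Animals on the same diet differed widely. Over the 12 animals the highest FPKM of a gene was between 1.54 (PCNA) and 17.0 (FOXM1) times the lowest, with a median of 4.43. The SD within groups on the log2 scale had a median of 0.572 for the cell cycle genes and 0.358 for all genes tested, and 40 of the 45 were above the latter. To describe each animal, the log2 values of the 45 genes were centred per gene and averaged. This score was 0.55, -0.016, 0.014, -0.15, -0.15 and -0.27 in control animals 1 to 6 and 0.64, 0.41, -0.056, 0.044, 0.29 and -1.30 in treated animals 1 to 6. The group means were -0.0050 ± 0.29 and 0.005 ± 0.69 (SD, n = 6 each), a difference of 0.01. Treated animal 1 and treated animal 6 were 1.94 apart, a 3.84-fold difference, and the control animals spanned -0.27 to 0.55. Without the animals numbered 6 the means were 0.048 in control animals and 0.27 in treated animals.

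Treated animal 6 was the lowest of the 12 animals for 41 of the 45 cell cycle genes, against 24.5% of the genes tested. The exceptions were MCM7, AURKB and TYMS, for which control animal 6 was lowest, and PCNA, for which it was treated animal 3. It was more than 2-fold below the mean of the 10 animals not numbered 6 for 35 of the cell cycle genes (77.8%), against 15.4% of the genes tested. Treated animal 1 was the highest for 28 of the 45 genes, against 12.9% of the genes tested, and control animal 1 for 8. The animals at both ends thus received the same diet.

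Genes of S phase and of mitosis were then averaged apart. The S phase score covered 14 genes of licensing, the fork, nucleotides, E2F1 and CCNE2, and the mitosis score 29 genes, leaving out MKI67 and FOXM1. In treated animal 6 the S phase score was -1.31 and the mitosis score -1.23. In control animal 6 these were -0.76 and -0.038. On wider lists the gap between both scores in control animal 6 was smaller, at -0.35 for 35 other S phase genes and -0.24 for 59 other genes of G2 and mitosis. The mitosis score was lower than that of control animal 6 in control animals 2, 4 and 5, in treated animal 3 and in treated animal 6. Control animal 6 was below each of the 10 animals not numbered 6 for 10 of the 14 S phase genes and 5 of the 29 mitosis genes, against 27.2% of the genes tested. Among the 35 other S phase genes it was so for 12 (34.3%). Treated animal 1 showed the largest excess of mitosis over S phase genes among the other 11 animals, with an S phase score of 0.23 and a mitosis score of 0.79. In the remaining animals both scores lay within 0.385 of each other.

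**Figure D5:**
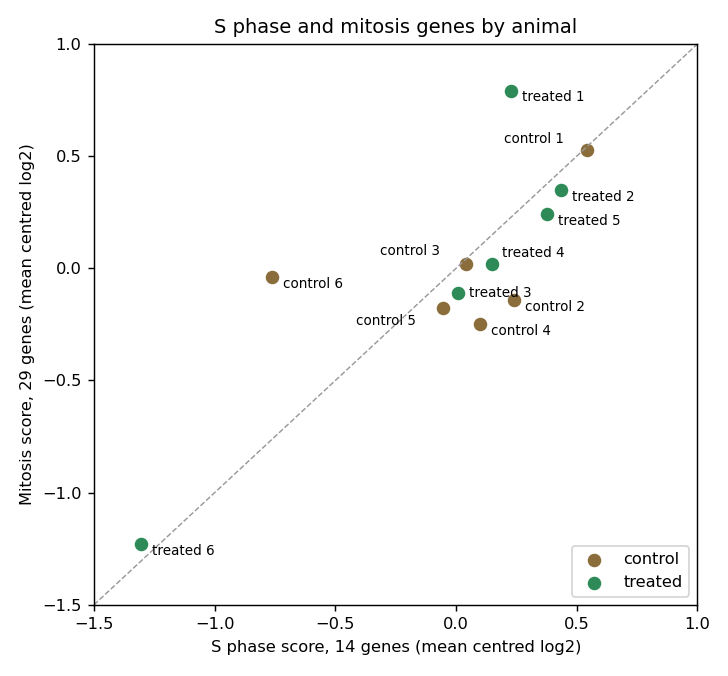
Mean centred log2 level of the 14 S phase genes (horizontal axis) and of the 29 mitosis genes (vertical axis) in each animal, coloured by diet, with a dashed line where both are equal. Treated animal 6 is low on both axes, control animal 6 at -0.761 for S phase and -0.038 for mitosis, and both diets are spread over the rest of the plot.

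The cell cycle genes varied together from animal to animal. Over the 990 pairs of genes, the median Pearson correlation across the 12 animals was 0.774 and 953 pairs were above 0. It was 0.614 without treated animal 6 (893 pairs above 0) and 0.68 without both animals numbered 6 (901 pairs above 0). These values describe 12 libraries that all genes share. For 42 of the 45 genes the correlation with the mean of the other 44 was above 0.7. The exceptions were MCM6 (0.447), TYMS (0.254) and PCNA (-0.071), all of replication or nucleotide supply. CENPF (0.976) and NCAPG (0.974) followed the others most closely. Among the 12574 tested genes outside the set, those whose pattern was most like the score over the 12 animals were KIF20B, NCAPH, SMC2, SMC4, NCAPG2, NEK2, KIF22, HJURP, SGO2 and KIF14, with correlations from 0.988 to 0.969. They include 4 subunits of condensin complexes (NCAPH, SMC2, SMC4 and NCAPG2), 3 kinesins, the mitotic kinase NEK2, the CENPA chaperone HJURP and SGO2, which protects cohesin. Without treated animal 6, 8 of these 10 were again among the 10 most alike.

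Markers of the basal epithelium, the layer in which cells divide, were lower in sum in the same animals, though not for every marker. The summed level of the 7 basal markers found in the table, of 8 listed, ranged from 1259 to 3083 FPKM in control animals and from 1418 to 3948 FPKM in treated animals, and the lowest value in each group was that of its animal 6. KRT5 was at 451 FPKM in control animal 6 and 498 FPKM in treated animal 6, against a median of 1607 FPKM over the 12 animals. LAMB3, a laminin chain under the basal cells, was at 7.28 and 10.4 FPKM, against a median of 34.0 FPKM. TP63, the transcription factor of basal cells, differed less, at 37.05 and 29.3 FPKM against a median of 38.5 FPKM. ITGA6, an integrin chain of the hemidesmosome, went the other way in control animal 6, where its 75.7 FPKM were the highest of the 12 animals, and was lowest in treated animal 6 (50.5 FPKM). KRT15, which with KRT5 made up most of the sum, was lowest in control animal 6 (603 FPKM), but its 758 FPKM in treated animal 6 lay above the levels of control animal 3 and treated animal 3. Across the 12 animals the basal marker score and the cell cycle score had a Pearson r of 0.828 and a Spearman rho of 0.811, given as a description of 12 libraries. Without the 2 animals farthest from the median of the basal score, treated animal 6 and control animal 6, r was 0.694. Within diets, with the animals numbered 6 kept, r was 0.6 in the control and 0.967 in the treated group. The TMM factor of the libraries was also related to the cell cycle score, with a Pearson r of 0.764. It was 0.807 without both animals numbered 6, and 0.562 in the control and 0.914 in the treated group. For the number of reads on genes, r was -0.12 over the 12 animals, 0.463 in the control and -0.932 in the treated group. Apart from B cell genes, the other marker scores had r from -0.499 (fibroblast) to 0.252 (differentiated epithelium) over the 12 animals. Within diets the endothelial score had r of 0.714 in the control and -0.713 in the treated group. What lies behind these relations was not tested. Score means of the basal markers were -0.050 and 0.050 in the control and treated groups.

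Markers of other cell types were summed in the same way. The summed level of the 7 fibroblast markers ranged from 45.3 to 279.5 FPKM in control animals and from 19.6 to 180.3 FPKM in treated animals, and that of the 10 smooth muscle markers from 29.7 to 51.6 and from 16.9 to 42.3 FPKM. Treated animals 1 and 2, which were high for MKI67, had the lowest fibroblast scores of their group, -2.12 and -1.21. When the mean level of the smooth muscle and fibroblast markers entered the fit as a covariate, the median log2 fold change of the cell cycle genes was -0.18. All genes tested had a median of -0.019, and 8 of the 45 were higher in the treated group. With the basal score as a covariate the median of the 45 genes was -0.074, with 14 higher, beside -0.012 for all genes tested. MCM2, MCM3 and MCM5 then had nominal limma p-values below 0.05, where 2.52% of the genes tested had one. Their log2 fold changes were -0.34, -0.36 and -0.35. These genes are named because they were called there, and 0 were called after adjustment. The basal score was -0.821 in control animal 6 and -0.905 in treated animal 6, and -0.065 or more in the other animals. Both animals were also the lowest for MCM2, MCM3 and MCM5. Whether the calls rest on these animals was not tested. The 6 endothelial markers summed to between 9.78 and 32.3 FPKM in the control and between 5.89 and 33.7 FPKM in the treated group, the 6 T cell markers to between 12.3 and 27.5 and between 8.76 and 25.03 FPKM, and the 5 macrophage markers found to between 29.6 and 44.02 and between 25.6 and 47.96 FPKM. The macrophage sum was highest in the animal numbered 6 of each group, though not for every marker. In treated animal 6, AIF1 (20.9 FPKM) and MRC1 (1.36 FPKM) were the highest of the treated group. Its CSF1R (1.83 FPKM) was the lowest of all 12 animals, and its CD14 (23.6 FPKM) and CD68 (0.276 FPKM) lay within the range of the other treated animals. The fibroblast sum of treated animal 6, 180.3 FPKM, was the highest of its group, and that of control animal 6 was 216.3 FPKM. Control animal 6 also had the highest T cell sum of its group. Treated animal 6 had the lowest smooth muscle sum of its group, but its SMTN was at 3.47 FPKM, against 11.18 FPKM or more in the other treated animals. By the smooth muscle score, the mean centred log2 level of the 7 tested markers, treated animals 1 and 2 were lower (-1.163 and -0.753) than treated animal 6 (-0.387). The endothelial sums of control and treated animal 6 were 9.89 and 32.4 FPKM. The differentiated epithelium was described by 13 markers, of which KRT1 was listed at 0 everywhere, with summed levels from 2200.0 to 4376 FPKM in the control and from 1775 to 3578 FPKM in the treated group. The TMM factor of treated animal 6, 0.938, was the lowest of the 12, and the median log2 fold change on the TMM scale was 0.032. The part of these differences in the results on diet was not tested beyond these fits.

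Further genes of the cell cycle were read from lists of 128 symbols, of which 124 were tested. None passed the nominal threshold in limma. The mean log2 level was higher in treated animals for 58 and lower for 66, and the median log2 fold change was -0.018. Of 20 G1 cyclins, CDKs and RB family genes, 7 were higher and 13 lower. RBL1, a relative of the retinoblastoma protein, had the smallest p-value, with FPKM of 5.28, 6.33 and 7.04 (lowest, median and highest) in the control and 2.73, 5.65 and 7.22 in the treated group. Its log2 fold change was -0.25 ± 0.21 (SE, 95% interval -0.70 to 0.21, exact permutation p = 0.331). CDK4, the kinase of G1, was at a mean of 22.2 FPKM and varied little, from 19.1 to 25.9 FPKM.

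Of 13 CDK inhibitors and quiescence genes, 10 were tested, and 3 were higher and 7 lower. CDKN1A, an inhibitor of G1 and S phase CDKs, was far more abundant than any of the 45 genes, at a mean of 105 FPKM. It was at 64.1 FPKM in control animal 6 and 59.03 FPKM in treated animal 6, the lowest of their groups, and at or above 95.7 FPKM in the other animals. CDKN3, a phosphatase of CDKs whose own transcript is produced in dividing cells, was at 3.25, 1.896, 2.31, 1.72, 1.96 and 2.56 FPKM in control animals 1 to 6 and at 5.54, 3.33, 2.305, 2.899, 4.37 and 1.77 FPKM in treated animals 1 to 6. Treated animals 1, 2 and 5 lay above every control animal. The log2 fold change of CDKN3 was 0.49 ± 0.27 (SE, 95% interval -0.082 to 1.06, exact permutation p = 0.113), and without treated animal 6 it was 0.66, with a nominal limma p-value below 0.05.

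Among 35 further S phase genes, 22 were higher and 13 lower. GMNN, geminin, blocks a second round of licensing. It was at 15.6, 25.9, 29.7, 26.04, 27.7 and 27.1 FPKM in control animals 1 to 6 and at 24.2, 31.3, 29.3, 25.6, 33.0 and 46.5 FPKM in treated animals 1 to 6. Treated animal 6, the lowest for most cell cycle genes, was the highest for GMNN, and control animal 1, among the highest for cell cycle genes, was the lowest. Its log2 fold change was 0.32 ± 0.18 (SE, 95% interval -0.074 to 0.70, exact permutation p = 0.147). In treated animal 6, 23 of these 35 genes were below and 4 above each of the 10 animals not numbered 6, against 33.3% and 18.7% of the genes tested. The 4 genes above were GMNN, ORC6 (8.64 FPKM), RFC3 (7.67 FPKM) and TIPIN (18.3 FPKM), where RFC3 and TIPIN are named after their values were seen. ORC6 belongs to the origin recognition complex, RFC3 to the loader of PCNA, and TIPIN protects stalled forks.

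Of 59 tested G2 and mitosis genes beside the 45, 26 were higher and 33 lower in treated animals. CENPN, which reads CENPA nucleosomes, had the smallest p-value. Its FPKM were 2.29, 4.09 and 4.92 (lowest, median and highest) in the control and 3.602, 4.89 and 7.21 in the treated group, with overlap, and its log2 fold change was 0.43 ± 0.23 (SE, 95% interval -0.053 to 0.91, exact permutation p = 0.0996). SPC24, of the NDC80 complex of the outer kinetochore, was at 10.01 ± 3.88 FPKM in the control and 12.7 ± 3.22 FPKM in the treated group (SD, n = 6 each), and its partner NUF2 at 9.63 ± 2.69 and 8.06 ± 3.195 FPKM. CDC25B, the phosphatase that activates CDK1, was at 1.31, 2.02 and 2.92 FPKM (lowest, median and highest) in the control and 0.842, 2.62 and 4.61 FPKM in the treated group. Without treated animal 6, 5 of the 124 genes passed the nominal threshold in limma, namely SPC24, CENPN, TROAP, CDC25B and CDKN3, all higher in the treated group, against 2.57% of the genes tested and 0 after adjustment. TROAP, a microtubule-binding protein of the spindle, is named after its values were seen. In treated animal 6, 47 of the 59 genes lay below each of the 10 animals not numbered 6, against 33.3% of the genes tested. In control animal 6 it was 17 of the 59 (28.8%), close to the 27.2% of the genes tested.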

How the data were processed

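Ruminal wall RNA was sequenced in 12 animals, 6 per group. The authors trimmed reads with Trimmomatic 0.39, aligned them to UOA_WB_1 with STAR 2.5.2b, counted them by strand with featureCounts 2.0.0 and deposited FPKM values. The tool and gene lengths behind the FPKM are not given in the sources used here, and 4 columns without a sample were not used. Within each gene, FPKM are whole multiples of 1 read, so that reads were worked out for all 22972 genes above 0 (tolerance 0.01).

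Differences were tested with limma 3.58.1 in R 4.3.3 (lmFit, eBayes with trend) on log2(FPKM + 0.01). P-values were adjusted by Benjamini-Hochberg over the 12619 genes that reached 42 reads on the TMM scale in 1 animal. Fold changes on this scale understate those of low genes. In place of a count test, limma was run on FPKM, the values deposited, and voom on the reads worked out from them was an alternative. Single genes had a two-sided exact permutation test over 924 assignments. Python 3.11.15 was used, and the methods were tested on simulated data. The 66 pairs of libraries differed beyond sampling noise (chi-square per gene at least 15.9). Animals are the replicates.

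The 45 genes and the lists were chosen with earlier results of these data known. A fold change is given for the 10 of them that limma ranked first by p-value, MKI67, TOP2A and PCNA, and named list genes are among the 5 with the smallest p-values of their list unless stated. Alternatives were pseudocounts of 0.1 and 1, other filters and scalings, voom, the replicate number as a block, marker covariates and each animal left out. Leaving out both animals numbered 6 was chosen after seeing the data.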

Additional observations from a re-analysis of the deposited data

Results flagged for a closer look

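Within each group of 6 animals, the gap of the highest or lowest animal to the next was compared with the whole range of the group (Dixon's 95% critical value 0.625). Chance flags about 1 in 20 groups, and 90 groups were looked at for the 45 genes. These groups are not independent, since the 45 genes share the same animals and varied together. A single unusual library can therefore be flagged for many genes. There were 19 such values in 15 genes, of which 10 belonged to treated animal 6, 5 to control animal 1 and 4 to control animal 6.

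In treated animal 6 the lowest values stood apart for MCM2 (0.824 FPKM), MCM3 (1.41 FPKM), MCM4 (4.51 FPKM), MCM5 (2.68 FPKM), CDC6 (0.368 FPKM), GINS2 (0.197 FPKM), CDC20 (2.42 FPKM), KIF11 (3.21 FPKM), CENPA (2.55 FPKM) and CENPE (1.55 FPKM). Its score over the 45 genes, -1.30, also stood apart from those of the other treated animals. In control animal 6 the lowest values stood apart for MCM2 (1.45 FPKM), MCM3 (3.01 FPKM), MCM5 (2.94 FPKM) and GINS2 (0.238 FPKM), all genes of replication. In control animal 1 the highest values stood apart for FOXM1 (1.17 FPKM), CCNA2 (13.6 FPKM), BUB1 (10.4 FPKM), KIF2C (6.0 FPKM) and HMMR (11.3 FPKM), genes of G2 and mitosis or their regulation.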

How the results depend on the processing

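The number of genes with an adjusted p-value below 0.05 was 0 under every alternative. The median log2 fold change of the 45 genes was 0.032 in the main fit. Over the alternatives it ranged from -0.18 with the smooth muscle and fibroblast covariate to 0.26 without treated animal 6, so its sign was not stable. Nominal calls over all genes were 301 with the filter at 0.1 FPKM, 562 without a filter, 318 and 344 with the basal and the smooth muscle and fibroblast covariates, and 314 without both animals numbered 6, against 157. They were 142 to 324 with 1 animal left out. Of the 45 genes, 3 were called with the basal covariate, 1 without both animals numbered 6 and 0 to 1 with 1 animal left out. Of the other cell cycle genes, 1 was called with the basal covariate, 4 without both animals numbered 6 and 0 to 5 with 1 animal left out. The cause was not tested.

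With the smooth muscle and fibroblast covariate, log2 fold changes turned sign for PCNA (0.0002), AURKA (-0.0015), PRC1 (-0.16) and MKI67 (-0.29), and without both animals numbered 6 for TOP2A (0.14). With 1 animal left out, they ranged from -0.019 to 0.22 for MCM7, from -0.060 to 0.38 for PRC1, from -0.12 to 0.56 for MKI67 and from -0.33 to 0.089 for TOP2A. Of 345 such values of 15 genes under 23 alternatives, 327 kept their sign and their side of the threshold.

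With the replicate number as a block, 321 genes, 0 of the 45 and 2 further cell cycle genes (SPC24 and GMNN) had nominal p-values below 0.05. The numbers mark different animals in each group. Animals of the same number had correlations of their deviations between -0.014 and 0.415, and 8 of 12 animals correlated best with their own number. In the sample titles the animals of such a pair carry different numbers, and no pairing is described for the study. These correlations come from the same data, so they do not establish a pairing.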
